A study of Mus musculus with 32 samples.

Results

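The genes described here are the mouse receptors for the constant region of IgG and the adaptor proteins that carry activating signals from them and from related myeloid receptors. They were chosen by name, with earlier results of these data known. They are Fcgr1, Fcgr3 and Fcgr4 (activating receptors), Fcgr2b (the inhibitory receptor), Fcer1g (the FcR gamma chain), Tyrobp (DAP12) and Trem2 (a receptor that signals through DAP12). These are 7 of the 22180 genes measured, and each was read by exactly 1 array feature that names no other gene. Whole kidneys of 32 male mice of strain 129 were profiled, 1 array per mouse, in 4 groups of 8 mice: Col4a3–/– mice (KO) and Col4a3+/+ littermates (WT) at 4 weeks of age, and KO and WT mice at 7 weeks. Col4a3 encodes a collagen IV chain of the glomerular basement membrane whose loss causes Alport nephropathy, a progressive kidney disease. The labels name no treatment in any group. The sources used here do not give which part of Col4a3 the allele removes.

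Activating Fc receptors bind antibody that coats a target, and their signal passes through a short tyrosine motif, the ITAM, in the FcR gamma chain. DAP12 carries the same motif for another set of receptors, among them Trem2, which binds lipids and apoptotic material. Phosphorylated ITAMs recruit the kinase Syk, which drives phagocytosis, oxidant release and cytokine production. Fcgr2b instead carries an inhibitory motif, the ITIM, which recruits the phosphatase SHIP-1 (Inpp5d) and damps the same signal. In the kidney these receptors are found mainly on macrophages and dendritic cells, and in mice the FcR gamma chain is required for full injury in antibody-mediated glomerulonephritis.

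Promoter windows are shown because the members moved together in KO kidneys and because Fcgr2b, the inhibitory receptor, can be set beside the activating ones. The windows come from RefSeq, build GRCm38.p6, which is the C57BL/6J genome and not that of strain 129. They run from 250 bases before to 50 after the gene's start, 5′ to 3′ along the gene. Of the 7 genes, 6 had a window, and Tyrobp had none. Both strands were searched for GAGGAA, the core that the myeloid factor PU.1 binds, and for TTCNNNGAA, a pattern that STAT factors bind. The 2 patterns do not overlap in these windows. Capitals mark matches: TTCCTC, which is GAGGAA read on the other strand, and in Fcgr1 also TTCCCAGAA.
Fcgr1, chr3:96293920-96294219, minus strand: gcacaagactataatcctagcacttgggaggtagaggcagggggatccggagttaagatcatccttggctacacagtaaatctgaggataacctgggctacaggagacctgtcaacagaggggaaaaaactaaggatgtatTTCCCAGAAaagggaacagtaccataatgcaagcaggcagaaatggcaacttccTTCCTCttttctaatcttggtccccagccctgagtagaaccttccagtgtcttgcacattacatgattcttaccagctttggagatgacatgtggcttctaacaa
Fcgr3, chr1:171059354-171059653, minus strand: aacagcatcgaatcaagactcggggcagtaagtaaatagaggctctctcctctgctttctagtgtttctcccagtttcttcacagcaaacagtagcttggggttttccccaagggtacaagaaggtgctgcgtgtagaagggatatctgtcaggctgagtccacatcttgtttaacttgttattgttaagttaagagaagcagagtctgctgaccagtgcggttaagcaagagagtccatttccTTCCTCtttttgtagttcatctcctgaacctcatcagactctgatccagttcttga
Fcgr4, chr1:171018676-171018975, plus strand: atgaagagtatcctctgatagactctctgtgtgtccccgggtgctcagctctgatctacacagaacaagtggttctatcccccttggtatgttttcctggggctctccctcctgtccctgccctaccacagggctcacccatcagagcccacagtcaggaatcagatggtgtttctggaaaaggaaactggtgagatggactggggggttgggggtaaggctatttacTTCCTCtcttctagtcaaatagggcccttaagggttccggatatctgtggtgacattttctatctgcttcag
Trem2, chr17:48346151-48346450, plus strand: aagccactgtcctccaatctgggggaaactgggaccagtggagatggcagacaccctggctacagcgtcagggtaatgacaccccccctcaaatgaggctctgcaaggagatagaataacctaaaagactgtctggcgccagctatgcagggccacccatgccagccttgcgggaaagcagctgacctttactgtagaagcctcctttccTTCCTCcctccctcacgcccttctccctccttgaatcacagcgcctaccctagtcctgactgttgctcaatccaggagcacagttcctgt
Fcgr2b, chr1:170976022-170976321, minus strand: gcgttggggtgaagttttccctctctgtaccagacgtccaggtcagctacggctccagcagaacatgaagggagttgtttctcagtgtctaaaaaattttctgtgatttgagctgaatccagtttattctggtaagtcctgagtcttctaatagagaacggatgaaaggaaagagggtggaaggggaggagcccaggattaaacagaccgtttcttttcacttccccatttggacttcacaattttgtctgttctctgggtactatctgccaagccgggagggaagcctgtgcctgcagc
GAGGAA was found in the windows of Fcgr1, Fcgr3, Fcgr4 and Trem2, 4 of the 6 genes, and in 28.3% of all 32851 windows of the same length. In all 4 genes it lay on the strand opposite the gene, as TTCCTC, beginning 55 bases before the start in Fcgr1, 6 in Fcgr3, 22 in Fcgr4 and 40 in Trem2. For the other annotated start of Fcgr3 the distance was 15 bases. TTCCTC within 60 bases before the start was present in 3.25% of all windows, a distance chosen after the matches were seen. TTCNNNGAA was found in Fcgr1, 109 bases before its start, and in 8.3% of all windows. Fcgr2b (shown) and Fcer1g (not shown) held neither pattern. These are matches of letters and were not tested as binding sites.

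At 7 weeks all 7 genes were higher in KO than in WT kidneys. The largest differences belonged to the adaptors, 6.46-fold for Tyrobp and 6.43-fold for Fcer1g. The activating receptors followed, with Fcgr1 4.20-fold, Fcgr4 3.03-fold and Fcgr3 2.62-fold higher, then Trem2 at 2.42-fold. The inhibitory receptor Fcgr2b had the smallest of the 7 differences, 1.69-fold. At 4 weeks none of the 7 passed the same test, and the genotype difference at 7 weeks exceeded that at 4 weeks for each of the 7, though for Fcgr2b that call was lost under several alternatives. All levels below are log2 array signals, and differences are KO minus WT on that scale, so that 1 unit is a doubling. In WT kidneys at 7 weeks the mean signals of Fcgr4 (5.23) and Fcgr1 (5.45) were below every array median (5.61 to 5.79). How signal level bears on the order of the folds was not tested.

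**Figure D1:**
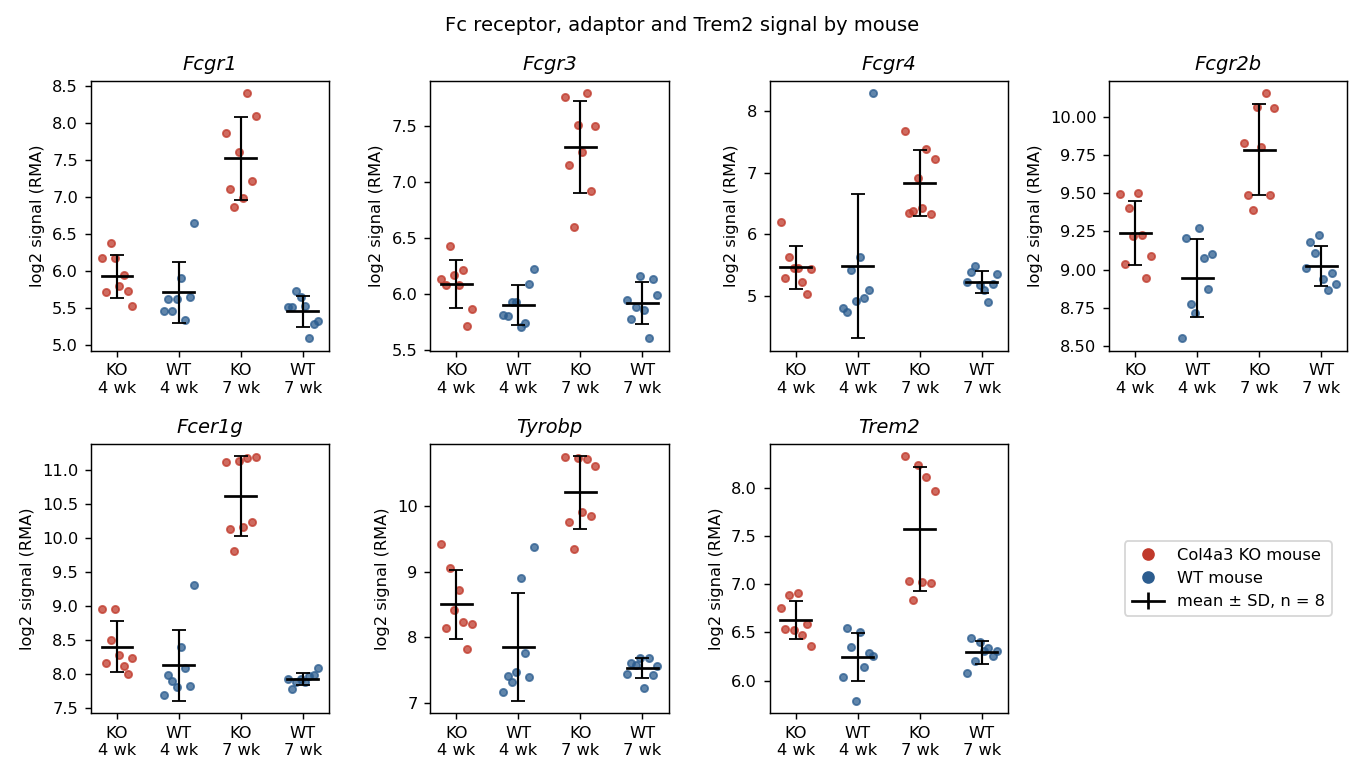
Log2 signal (vertical axis) of each of the 7 genes in every mouse, with 8 mice per group and 4 groups by genotype and age. Each point is 1 mouse, and lines and bars are the group mean ± SD. The 8 KO mice at 7 weeks lie above all 8 WT mice of that age in each of the 7 panels. Fcgr4 in WT mice at 4 weeks shows a single mouse at 8.28.

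A few facts of the whole series bear on these values. The array medians ranged from 5.61 to 5.79, and the correlation between 2 arrays of a group, over all genes, was 0.965 to 0.995. Col4a3 itself was lower in KO kidneys, 1.99-fold at 4 weeks (adjusted p = 8.75e-05) and 3.13-fold at 7 weeks (adjusted p = 3.98e-12), in the direction of the labels. One mouse stood apart from its group. WT mouse 8 at 4 weeks had a mean over 6 general macrophage genes (Adgre1, Csf1r, Cd68, Aif1, Cx3cr1 and Mpeg1) of 7.66, against 6.29 to 6.71 in the other 7 WT mice of that age. Its mean over T cell markers was 6.04 (5.13 to 5.38 in the others), and its mean over kidney epithelial markers was 10.68 (10.81 to 11.13 in the others). Results at 4 weeks are therefore given with and without this mouse.

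Fcgr1 encodes the high-affinity receptor, which can bind single IgG molecules. In KO kidneys at 7 weeks its lowest, median and highest log2 signals were 6.87, 7.41 and 8.41, against 5.08, 5.51 and 5.73 in WT kidneys. The groups did not overlap, and the lowest KO mouse was 1.14 above the highest WT mouse. The difference of 2.07 ± 0.18 (SE, limma, n = 8 mice per group) had an adjusted p of 1.18e-10.

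Fcgr3 and Fcgr4 encode low- to intermediate-affinity activating receptors that bind immune complexes. Fcgr3 had signals of 6.60, 7.38 and 7.79 (lowest, median, highest) in KO kidneys at 7 weeks, and 5.60, 5.91 and 6.16 in WT kidneys. Fcgr4 had 6.32, 6.66 and 7.67 in KO kidneys and 4.91, 5.21 and 5.49 in WT kidneys. Neither gene's groups overlapped. The KO mice spread more widely than the WT mice, with an SD of 0.54 against 0.18 for Fcgr4 and 0.41 against 0.18 for Fcgr3. The limma differences were 1.39 ± 0.13 for Fcgr3 (adjusted p = 2.25e-10) and 1.60 ± 0.31 for Fcgr4 (adjusted p = 0.00012). These SEs pool the spread of all 4 groups, and Fcgr4 had an SD of 1.17 in WT mice at 4 weeks. With the 7-week groups alone the SE was 0.18 for Fcgr4 and 0.15 for Fcgr3, and both still passed.

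The inhibitory receptor Fcgr2b had signals of 9.39, 9.82 and 10.155 in KO kidneys at 7 weeks and 8.87, 8.99 and 9.22 in WT kidneys. These groups also did not overlap, but the lowest KO mouse was only 0.168 above the highest WT mouse. Fcgr2b was 0.76 ± 0.11 higher in KO kidneys (adjusted p = 2.23e-06).

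Fcer1g, whose product is needed for the surface expression and signalling of the activating receptors, had signals of 9.81, 10.67 and 11.19 in KO kidneys at 7 weeks and 7.79, 7.93 and 8.09 in WT kidneys. The difference was 2.68 ± 0.21 (adjusted p = 4.26e-12). Tyrobp, the adaptor of Trem2 and of many other myeloid and NK cell receptors, had 9.35, 10.27 and 10.75 in KO kidneys and 7.23, 7.57 and 7.69 in WT kidneys. Its difference was 2.69 ± 0.27 (adjusted p = 9.76e-10). For both adaptors every KO mouse was more than 1.6 log2 units above every WT mouse, at least 1.71 for Fcer1g and 1.66 for Tyrobp.

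Trem2 had signals of 6.84, 7.50 and 8.33 in KO kidneys at 7 weeks and 6.08, 6.31 and 6.45 in WT kidneys. The KO values fell into a lower set of 4 mice, up to 7.03, and an upper set of 4 mice, from 7.97, with both sets above every WT mouse. The difference was 1.28 ± 0.17 (adjusted p = 3.93e-07).

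In all, 7 of 7 genes were higher in KO kidneys at 7 weeks by limma at adjusted p below 0.05, where 15.6% of all 22180 genes were called higher. The 2 genotypes did not overlap for 7 of 7, where every KO mouse was above every WT mouse for 7.62% of all genes. The 7 genes were chosen with earlier results of these data known, and they correlate with each other. Their counts are therefore not 7 separate pieces of evidence. The exact permutation test over all 12870 splits of the 16 mice gave p = 0.000155 for each gene (two-sided). That is the smallest it can give and follows from the lack of overlap, so it is not further evidence. At the wider threshold of 0.05, 46.6% of all genes had an unadjusted exact permutation p below it. Centring each array on its median lowered every 7-week difference by 0.114, to between 0.64 and 2.58, and all 7 still passed. In whole kidney, more cells of a type and more RNA per cell cannot be told apart. Mean levels over 17 macrophage markers were 7.86 to 8.97 in KO kidneys at 7 weeks and 6.40 to 6.62 in WT kidneys. Of these markers 15 rose (Lyz2 by 4.07, Cd14 by 3.56, Cd68 by 2.64, Mrc1 by 2.15), Mertk fell by 0.41 (named after its value was seen) and Cd163 differed by 0.04. Their part in the 7 differences was not tested.

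**Figure D2:**
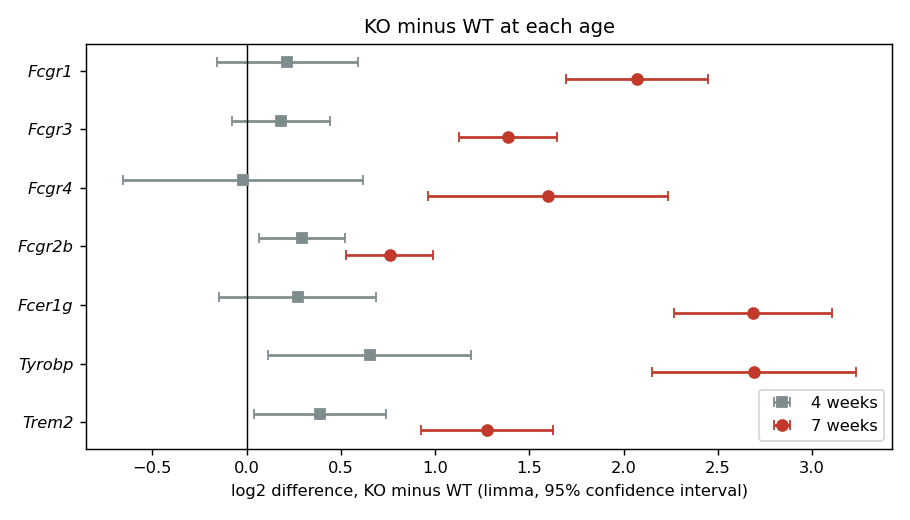
Difference in log2 signal for each of the 7 genes with 95% confidence intervals from limma (horizontal axis), for KO minus WT at 4 weeks (squares) and at 7 weeks (circles). At 7 weeks the genotype differences run from 0.76 for Fcgr2b to 2.69 for Tyrobp, and at 4 weeks from -0.02 for Fcgr4 to 0.65 for Tyrobp.

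At 4 weeks 0 of 7 genes passed in limma, where 0.0316% of all genes were called higher and 0.0406% in either direction. At an unadjusted p below 0.05, limma counted 3 of the 7 (Tyrobp, Trem2 and Fcgr2b), against 9.22% of all genes in either direction. A rank-sum test with the same adjustment also passed 0 of 7. The KO and WT groups overlapped for every one of the 7 genes, and every KO mouse was above every WT mouse for 0.0271% of all genes.

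The 4-week values were closest to separating for Trem2, which had 6.36, 6.56 and 6.91 (lowest, median, highest) in KO kidneys and 5.79, 6.27 and 6.55 in WT kidneys. Of the 8 KO mice, 4 were above every WT mouse. The difference was 0.39 ± 0.17 in limma (adjusted p = 0.49), with an unadjusted exact permutation p of 0.00311. Fcgr2b differed by 0.29 ± 0.11 (adjusted p = 0.421, unadjusted exact permutation p = 0.0278), and its difference in medians was 0.25 (unadjusted exact permutation p = 0.0525). Tyrobp had 7.82, 8.33 and 9.43 in KO kidneys and 7.16, 7.44 and 9.38 in WT kidneys, a difference of 0.65 ± 0.27 (adjusted p = 0.45, unadjusted exact permutation p = 0.0816). For Tyrobp 1 KO mouse was above every WT mouse.

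WT mouse 8 set the top of the WT range at 4 weeks for Fcgr1, Fcgr3, Fcgr4, Fcer1g and Tyrobp. For Fcgr4 it had a signal of 8.28, while the other 7 WT mice had 4.75 to 5.64 and the KO mice 5.04 to 6.20. With all mice the Fcgr4 difference at 4 weeks was -0.02 ± 0.31. Without WT mouse 8, an alternative chosen after the data were seen, it was 0.38 (unadjusted exact permutation p = 0.0452).

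Without that mouse the 4-week differences were 0.35 for Fcgr1, 0.23 for Fcgr3, 0.44 for Fcer1g, 0.87 for Tyrobp, 0.32 for Fcgr2b and 0.39 for Trem2. The unadjusted exact permutation p-values were then between 0.00544 (Trem2) and 0.0452 (Fcgr4), below 0.05 for 7 of 7 genes, where 9.21% of all genes were below 0.05 in the same exact permutation test. With all mice it was 2 of 7, where 7.13% of all genes were. The mouse was left out because it stood apart in these same genes, which correlate with each other, so the 7 are not separate evidence. In limma across all genes 0 of 7 passed at 4 weeks without it. The lowest adjusted p was 0.128, for Tyrobp, and the highest 0.525, for Fcgr3. Markers of macrophages, T cells and NK cells were all highest in this mouse among the WT mice of its age, and their part in these values was not tested.

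The test of the difference between ages compared the genotype difference at 7 weeks with that at 4 weeks in the same model. It passed for 7 of 7 genes, all larger at 7 weeks, where 9.8% of all genes were called in that direction. The adaptor Fcer1g differed by 2.41 ± 0.29 (adjusted p = 7.92e-07) and Tyrobp by 2.04 ± 0.38 (adjusted p = 0.000219). Among the receptors the difference was 1.85 for Fcgr1, 1.62 for Fcgr4, 1.21 for Fcgr3 and 0.89 for Trem2, with adjusted p between 6.46e-06 and 0.00944. Fcgr2b had the smallest, 0.47 ± 0.16 (adjusted p = 0.0408). Its call was lost when arrays were centred on their median (0.37, adjusted p = 0.0887) and when any of 17 of the 32 mice was left out (adjusted p up to 0.0773). Without WT mouse 8 at 4 weeks the difference between ages was 1.22 for Fcgr4, 1.72 for Fcgr1, 1.82 for Tyrobp and 2.24 for Fcer1g. Each was that gene's lowest value over single mice left out, and each still passed.

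Within KO mice 7 of 7 genes were higher at 7 than at 4 weeks, where 21.4% of all genes were called higher. The differences ranged from 0.54 ± 0.11 for Fcgr2b (adjusted p = 0.000189) to 2.22 ± 0.21 for Fcer1g (adjusted p = 4.48e-10). Tyrobp was 1.71 higher at 7 weeks, Fcgr1 1.60, Fcgr4 1.36, Fcgr3 1.22 and Trem2 0.94.

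Within WT mice 0 of 7 passed between 4 and 7 weeks in limma, where 29.5% of all genes were called in either direction. At an unadjusted p below 0.05 the count was also 0 of 7, against 37.8% of all genes, and the rank-sum test passed 0 of 7. The differences ran from -0.33 ± 0.27 for Tyrobp to 0.08 ± 0.11 for Fcgr2b. These 2 age comparisons and the genotype comparisons share mice, so they are not separate evidence.

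Whether activating receptors changed more on the log2 scale than the inhibitory one was tested within each mouse. The value was the log2 signal of each activating receptor minus that of Fcgr2b. The levels were unlike: in WT kidneys at 7 weeks Fcgr2b had a mean of 9.03, against 5.23 for Fcgr4, 5.45 for Fcgr1 and 5.92 for Fcgr3. How these levels bear on the unequal change was not tested. At 7 weeks the Fcgr1 value averaged -2.26 ± 0.35 in KO kidneys and -3.57 ± 0.14 in WT kidneys (SD, n = 8 each). The KO mean was 1.31 higher, an unequal change (exact permutation, adjusted p = 0.000517 over 20 tests). Fcgr4 minus Fcgr2b averaged -2.95 ± 0.37 in KO and -3.80 ± 0.16 in WT kidneys, 0.84 higher in KO (exact permutation, adjusted p = 0.000517, n = 8 each). Fcgr3 minus Fcgr2b averaged -2.48 ± 0.21 in KO and -3.10 ± 0.18 in WT kidneys, 0.63 higher in KO (exact permutation, adjusted p = 0.000517, n = 8 each). For each of these 3 pairs all 8 KO mice were above every WT mouse. At 4 weeks none of the 3 passed, with differences of -0.08, -0.31 and -0.11 for Fcgr1, Fcgr4 and Fcgr3 (exact permutation, adjusted p between 0.623 and 0.732). The Fcgr1 and Fcgr4 differences at 4 weeks turned to 0.03 and 0.06 without WT mouse 8.

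**Figure D3:**
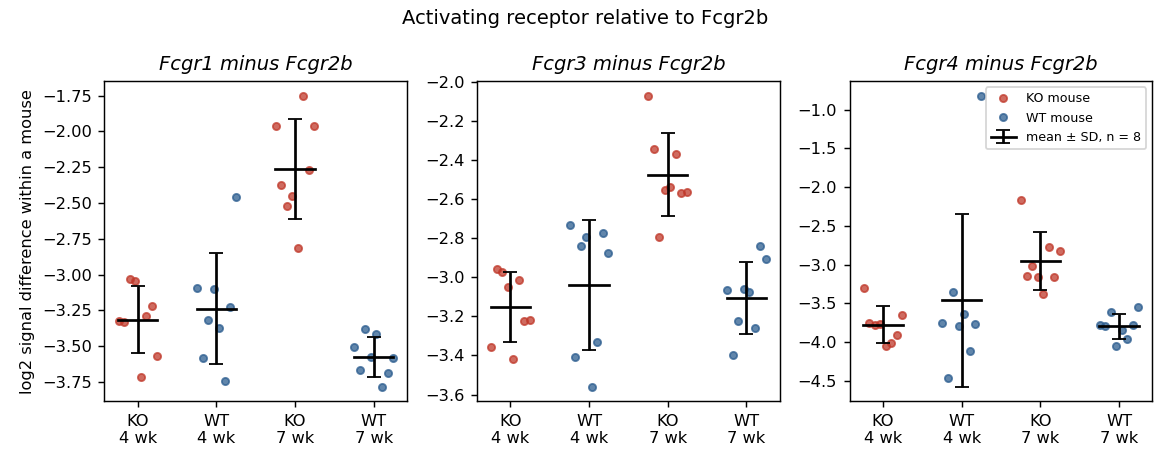
Log2 signal of Fcgr1, Fcgr3 and Fcgr4 minus that of Fcgr2b in the same mouse, by genotype and age, with 8 mice per group. Points are mice, and lines and bars are the group mean ± SD. At 7 weeks all 8 KO mice lie above the 8 WT mice in each panel, and at 4 weeks the genotypes overlap.

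The same within-mouse test set each gene against the mean of the 6 macrophage genes named above, which themselves differed by 0.56 (Csf1r) to 2.69 (Mpeg1) between KO and WT kidneys at 7 weeks. The adaptors changed more than this mean, Tyrobp by 0.95 and Fcer1g by 0.95 (exact permutation, adjusted p = 0.000517, n = 8 each). Fcgr2b changed less, by -0.98 (exact permutation, adjusted p = 0.000517, n = 8 each), with all 8 KO mice below every WT mouse. Trem2 also changed less, by -0.46 (exact permutation, adjusted p = 0.00311), as did Fcgr3, by -0.35 (exact permutation, adjusted p = 0.0128). Fcgr1 (0.33, exact permutation, adjusted p = 0.0578) and Fcgr4 (-0.14, exact permutation, adjusted p = 0.52) did not pass. At 4 weeks 0 of 7 passed in this exact permutation test.

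These results depend on the macrophage genes chosen. Against Adgre1 alone, the adaptors' values were 0.11 for Fcer1g (exact permutation, adjusted p = 0.422) and 0.11 for Tyrobp (exact permutation, adjusted p = 0.404), so neither passed. Against Adgre1, Fcgr1 turned to -0.51 and passed in that direction (exact permutation, adjusted p = 0.0186). Fcgr4 passed against Adgre1 (-0.98, exact permutation, adjusted p = 0.000443) and against Ptprc, the pan-leukocyte marker, alone (-0.57, exact permutation, adjusted p = 0.00528). Against Ptprc it also passed at 4 weeks (-0.58, exact permutation, adjusted p = 0.00518). Without WT mouse 8 it passed there too (-0.41, exact permutation, adjusted p = 0.00791). In that 4-week test without the mouse, 6 of the 7 genes passed as having changed less than Ptprc, from -0.35 for Fcer1g to -0.56 for Fcgr3, and Tyrobp did not (0.08, exact permutation, adjusted p = 0.653). Against Adgre1 without the mouse 0 of 7 passed in the exact permutation test at 4 weeks.

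Among the 8 KO mice at 7 weeks the 7 genes ranked the mice alike. KO mice 1, 4, 6 and 8 held the 4 highest signals for each of the 7 genes. KO mouse 3 had the lowest signal for 6 of the 7, and KO mouse 7 for Fcgr4. Averaged over the 7 genes, KO mice 1, 4, 6 and 8 were 2.28, 2.12, 2.34 and 2.18 above the WT mean, and KO mice 2, 3, 5 and 7 were 1.38, 1.12, 1.46 and 1.38 above it. The gap between the fourth- and fifth-ranked mouse was 0.938 for Trem2, 0.881 for Fcer1g and 0.693 for Tyrobp, and 0.0248 for Fcgr2b. The same 4 mice had the highest means over the 6 macrophage genes, 8.75 to 8.89, against 7.90 to 8.21 in the other 4 KO mice. Their means over 11 kidney epithelial markers were 10.66 to 10.91, against 11.01 to 11.26 in the other 4. The T cell marker means were 6.40 to 6.74, against 5.94 to 6.20. The part of these marker levels in the ranking of the mice was not tested.

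**Figure D4:**
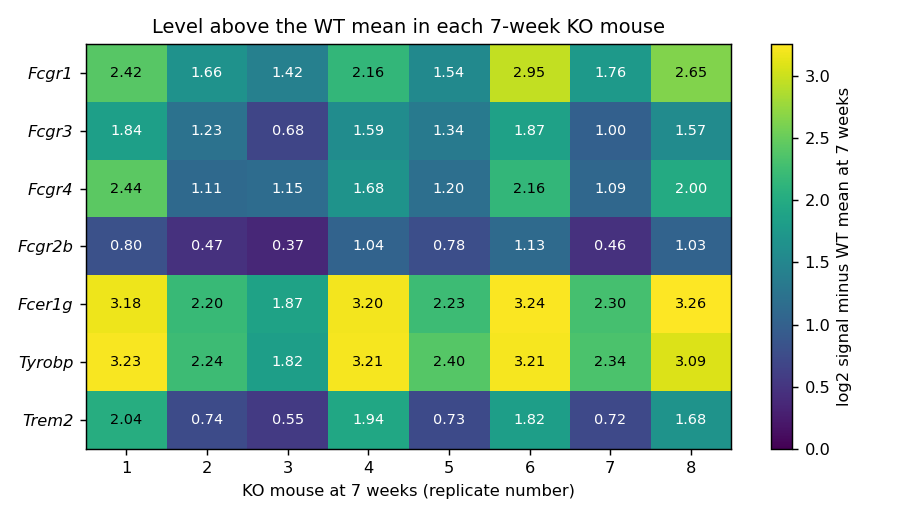
Heat map of the log2 signal of each of the 7 genes (rows) minus the WT mean of that age, in each of the 8 KO mice at 7 weeks (columns); brighter cells are further above WT. KO mice 1, 4, 6 and 8 are the upper 4 for every gene, and KO mouse 3 is lowest for 6 of 7.

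Across all 32 mice the 21 pairs of these genes correlated at 0.723 to 0.971 (median 0.892, Pearson). Within the 8 KO mice at 7 weeks the pairs correlated at 0.745 to 0.987 (median 0.889), highest for Fcer1g with Tyrobp. Among genes outside the set, the pattern most like Tyrobp over 32 mice was that of Cd53, a leukocyte tetraspanin (0.995), then Ly86 (0.994) and Clec12a (0.989). For Fcer1g it was Fxyd5 (0.99), C1qb, a complement component made by macrophages (0.987), and Alox5ap, which enables leukotriene synthesis (0.987). For Fcgr1 it was Ctsc, a lysosomal protease (0.973), Apobec1 (0.972) and Cybb, the catalytic subunit of the phagocyte oxidase (0.971). Fcgr4 was most like Psmb10, an immunoproteasome subunit (0.958), Parp12 (0.937) and Epsti1 (0.936). Fcgr3 and Trem2 were both most like Cd9, a tetraspanin (0.959 and 0.954). Fcgr2b was most like Rgs10 (0.936), Ralb (0.931) and Cysltr1 (0.925). Within the 8 KO mice at 7 weeks the most alike genes were others for 6 of the 7 members. There Fcgr1 was most like Chchd5 (0.994), Zbtb25 (0.99) and Prkra (0.987), and Fcgr4 most like Rnf20 (0.986), Ifnlr1 (0.983) and Tmem45a (0.979). Fcgr3 was most like Pfkp (0.997), Fcgr2b most like Wfdc17 (0.988), Fcer1g most like Dapp1 (0.998) and Trem2 most like Endod1 (0.992). For Tyrobp, Cd53 (0.997) and Ly86 (0.995) were again the highest. These are the highest of all genes searched, over 8 mice. Chchd5, Prkra and Rnf20 did not differ between KO and WT kidneys past the threshold at 7 weeks. These correlations are descriptions, since over 32 mice they include the differences between the 4 groups, and both genes of a pair were read on the same array.

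Genes downstream of the ITAM or linked to it were taken from a list assembled with earlier results known. Of 21 measured, 19 were higher in KO kidneys at 7 weeks. The median difference of the 21 was 0.94, against -0.06 over all genes. Of all genes, 15.6% were called higher and 16.7% lower at 7 weeks, which is the background for each list below. Syk, the kinase that binds the ITAM, was 1.11 ± 0.08 higher (2.16-fold, adjusted p = 3.12e-12). Nckap1l, a component of the actin-regulating WAVE complex, was 2.41 higher, the GTPase Rac2 1.99 and Pik3r5, a PI3-kinase regulatory subunit, 1.30. Card9 (0.17) and Hcst, the DAP10 adaptor (-0.08), did not pass. None of the 21 passed at 4 weeks in limma.

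Genes listed as brakes of the same signal rose in 8 of 10 cases at 7 weeks, with a median of 0.31. When arrays were centred on their median, 5 of 10 rose. Inpp5d, the SHIP-1 phosphatase that Fcgr2b recruits, was 1.25 ± 0.14 higher (2.37-fold, adjusted p = 1.11e-08), above the 0.76 of Fcgr2b itself. Ptpn22 was 0.64 higher, Dok3 0.50 and the phosphatase Ptpn6 (SHP-1) 0.33. Cbl (0.26) and Sh2d3c (-0.10) did not pass. The difference in change between Inpp5d and Fcgr2b was not tested.

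Other receptors that use DAP12 or the FcR gamma chain rose in 14 of 20 cases, with a median of 0.57. They included Clec4n (Dectin-2, 2.35), Cd300c2 (1.77), Sirpb1a (1.65) and Clec5a (1.60). Fcer1a, the ligand-binding chain of the IgE receptor, differed by -0.22 and Trem3 by 0.16, and neither passed. Inhibitory myeloid receptors rose in 13 of 16 cases, with a median of 1.16, and included Clec12a (3.07), Lilrb4a (3.06), Pilra (2.26) and Lair1 (1.52).

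Among 13 other antibody receptors, 4 were higher and 2 lower in KO kidneys at 7 weeks, with a median of -0.04. Fcrls, an Fc receptor-like gene, was 1.06 higher, Fcrla 0.52 and Fcrlb 0.48. Fcamr, the receptor for IgA and IgM, was lower by a difference of -1.86 ± 0.33 (3.63-fold lower, adjusted p = 3.74e-05). From 4 to 7 weeks Fcamr rose by 1.68 in WT kidneys (limma, adjusted p = 0.000233). In KO kidneys it differed by -0.02 between those ages (limma, adjusted p = 0.962). Pigr, which carries polymeric antibody across epithelia, differed by -0.24 and did not pass. Among lipid-associated macrophage genes, a set that Trem2 is known to control in other mouse tissues, 14 of 20 were higher and 2 lower, with a median of 0.61. Clec7a was 3.36 higher, Itgax 2.40, Axl 1.66 and Lgals3 1.17. Lpl (-1.21) and Cd36 (-0.70), both named after their values were seen, fell.

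**Figure D5:**
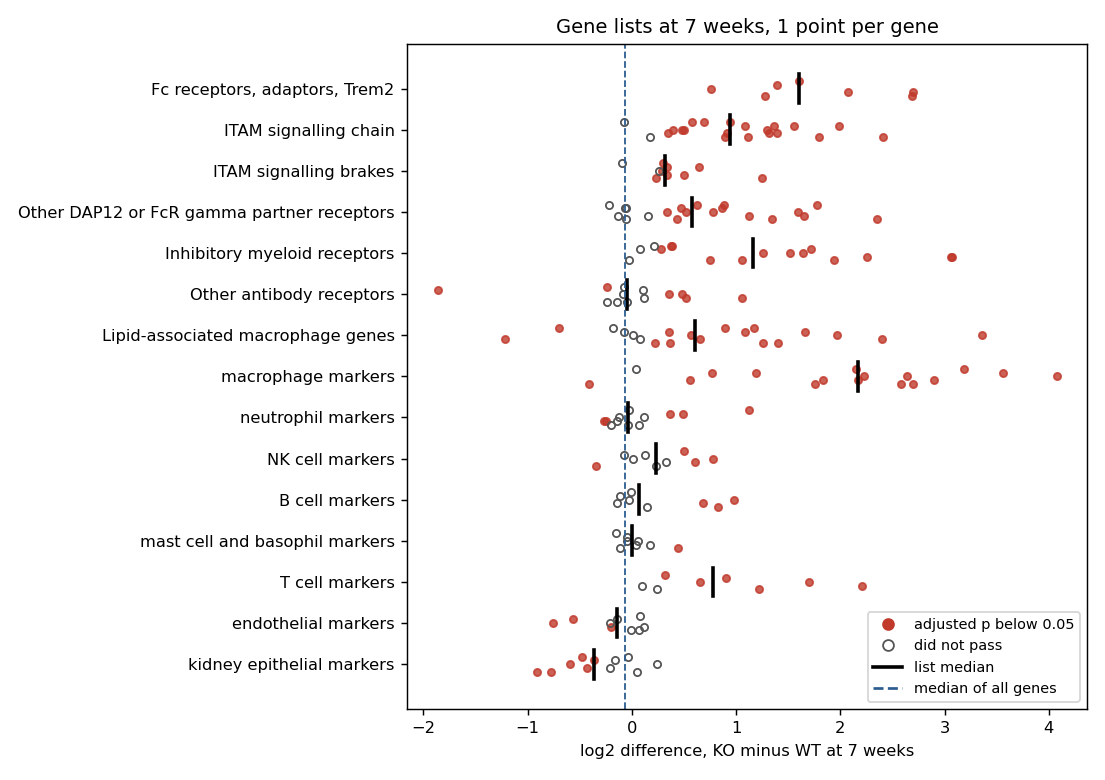
KO minus WT difference in log2 signal at 7 weeks for each measured gene of the signalling and marker lists, with the 7 genes described here shown as their own list. Points are genes, filled where they passed, the dashed line is the median of all genes and the bar is each list's median, which is 1.60 for the 7 genes, 2.17 for macrophage markers and -0.37 for kidney epithelial markers.

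The lists for other cell types were counted in the same way. Neutrophil markers were higher in 3 and lower in 2 of 12 cases, with Csf3r at 1.12 and the defining genes S100a8 (0.06) and Ly6g (0.11) not passing. NK cell markers were higher in 3 and lower in 1 of 9, with Klrd1 at 0.77 and Ncr1 at 0.24, which did not pass. Mast cell and basophil markers were higher in 1 of 8 (Cpa3, 0.44). B cell markers were higher in 3 of 8 (Bank1 0.97, Ighm 0.82 and Cd79b 0.69), with a median of 0.07. The defining genes Ms4a1 (-0.03), Pax5 (-0.004) and Cd79a (0.14) did not pass. T cell markers were higher in 6 of 8, with Il7r at 2.21 and Cd3g at 1.70, and Cd3d (0.10) and Lat (0.24) did not pass. Endothelial markers were lower in 3 of 9 and kidney epithelial markers in 6 of 11, with Slc5a2 at -0.91 and Kl at -0.78. After centring, the brakes called higher went from 8 to 5 of 10. Markers called lower went from 3 to 5 of 9 for endothelial, 2 to 4 of 12 for neutrophil and 0 to 2 of 8 for B cell markers. Of the mast cell and basophil markers, 0 were then higher and 1 lower. Of 182 list genes outside the 7, 120 passed at 7 weeks and 0 at 4 weeks in limma.

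Fcgr2b, Fcgr4 and Fcgr3 are adjacent on chromosome 1, and Fcer1g lies further along the same stretch, by the gene order of RefSeq. Of 17 neighbours listed between and 5 genes to either side of them, a range chosen after values were seen, 13 were measured. Of those, 3 were higher at 7 weeks (Adamts4 by 0.65, Fcrla by 0.52, Fcrlb by 0.48), 3 were lower (Sdhc by a difference of -0.46, Dusp12 -0.23, Apoa2 -0.18) and 7 did not pass. The neighbours' differences thus lay between -0.46 and 0.65, below those of Fcgr2b, Fcgr4, Fcgr3 and Fcer1g (0.76 to 2.68). The probe sequences of these features were not used here, so cross-hybridisation between the related receptors Fcgr2b, Fcgr3 and Fcgr4 was not examined.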

How the data were processed

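Kidney RNA from 32 male mice was hybridised to Affymetrix Mouse Gene 2.0 ST arrays, 1 array per mouse. The authors deposited gene-level log2 signals made by robust multi-array averaging, per the labels; the submitters' processing notes name Affymetrix Expression Console, with no version. Values were used as deposited, with no pseudocount or filter on low values. All columns matched a sample. Scan dates and probe-level data were not used here. Of 41345 features, 23521 named 1 symbol, 1814 several and 16010 none; for genes with several features the one with the highest mean was kept, which gave 22180 genes.

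Differences were fitted with limma 3.58.1 in R 4.3.3 as 4 group means (28 residual degrees of freedom) and 5 comparisons, with Benjamini-Hochberg adjustment over every gene in a comparison; a gene passed at adjusted p below 0.05. Unequal change within mice was tested with exact permutation, adjusted over 20 tests. Each mouse is 1 sample; the arrays' number limits precision. Named genes were the 7, Col4a3, up to 4 passing genes with the smallest p and up to 2 others with the largest difference per list, defining markers, and the 3 genes most alike by correlation. The limma fit and the permutation test were checked on simulated data. The 7 genes and all lists were chosen with earlier results of these data known. Replicate numbers were not used to pair mice in the main fit, and litters were not modelled. Of 48 same-number pairs, 9 correlated above 0.1. Among mice of the other groups, 7 of 32 mice correlated best with a mouse of their own number. Alternatives were array centring, a trend prior, array weights, the groups compared alone, the mean of features, a level filter, a replicate block, a rank-sum test and each mouse left out.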

Additional observations from a re-analysis of the deposited data

Results flagged for a closer look

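WT mouse 8 at 4 weeks lay far from the other 7 WT mice of its age for 3 of the 7 genes: its log2 signal was 6.64 for Fcgr1 (5.33 to 5.90 in the others), 8.28 for Fcgr4 (4.75 to 5.64) and 9.31 for Fcer1g (7.70 to 8.40). Of 28 combinations of 1 gene and 1 group of 8 mice examined, 3 held such a mouse, and chance gives about 1 in 20 for each. All 3 were this same mouse, in genes that correlate with each other, so they are not separate evidence. The NK cell marker mean of this mouse was 5.38, against 4.63 to 4.80 in the others.

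The genotype difference was larger at 7 than at 4 weeks for each of the 7 genes by the limma interaction test, by 2.41 for Fcer1g, 2.04 for Tyrobp, 1.85 for Fcgr1, 1.62 for Fcgr4, 1.21 for Fcgr3, 0.89 for Trem2 and 0.47 for Fcgr2b on the log2 scale. For Fcgr2b (adjusted p = 0.0408) the call was lost with arrays centred on their median, with the replicate block and when any of 17 of the 32 mice was left out. The Fcgr4 value was 1.22 without WT mouse 8 at 4 weeks, and its call was kept.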

How the results depend on the processing

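For KO against WT at 7 weeks and for 7 against 4 weeks in KO, 278 of 278 recomputed values for the 7 genes kept their call, over the alternatives run and each mouse left out. At 4 weeks 272 of 278 did, and the other 6 were Fcgr4 turning sign below the threshold, to 0.0695 with array weights and between -0.13 and 0.38 over single mice left out. In WT between ages 271 of 278 did; with single mice left out the range was -0.0200 to 0.0604 for Fcgr3, -0.0131 to 0.0956 for Trem2 and -0.36 to 0.14 for Fcgr4. For the difference between ages 245 of 264 did, and the other 19 were Fcgr2b, whose call was lost with centring (0.37, adjusted p = 0.0887), with the replicate block (0.47, adjusted p = 0.0526) and for 17 of 32 single mice left out (0.41 to 0.52, adjusted p up to 0.0773): WT mice 2, 5, 6 and 8 and KO mice 2, 6, 7 and 8 at 4 weeks, and WT mice 1, 5, 6, 7 and 8 and KO mice 1, 4, 6 and 8 at 7 weeks. The block changed no other call of these 7 genes. The cause was not tested. These counts include fits that could change little. In a comparison of 2 groups, leaving out a mouse of another group keeps the difference and alters only the shared spread. Each of the 7 genes has 1 feature, so the mean of features repeats the same differences.

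With Ptprc in place of the 6 macrophage genes, Fcgr1 turned to -0.10 at 7 weeks, and at 4 weeks Fcgr1 to -0.35, Fcgr2b to -0.27, Fcer1g to -0.29 and Trem2 to -0.18. With Adgre1, Fcgr1 turned to -0.51 at 7 weeks, and at 4 weeks Fcgr1 to -0.14, Fcgr2b to -0.0628 and Fcer1g to -0.0853. Without WT mouse 8 at 4 weeks, Fcgr1 minus Fcgr2b was 0.0340, Fcgr4 minus Fcgr2b 0.0633, Fcgr2b minus the macrophage mean -0.0209 and Fcgr4 minus it 0.0424; the Fcgr4 difference was 0.38, and 14 exact permutation tests of the 14 at both ages had p below 0.05, against 9 (over all genes 9.21% at 4 weeks without the mouse, 7.13% with it and 46.6% at 7 weeks). Against Ptprc without that mouse, Fcgr1 was -0.44, Fcgr2b -0.47, Fcer1g -0.35 and Trem2 -0.40 at 4 weeks; against Adgre1 without it, Fcgr1 was -0.12, Fcgr2b -0.15, Fcer1g -0.0302 and Trem2 -0.0805. By the difference in medians at 4 weeks, Fcgr2b lost its unadjusted call (0.25, exact permutation p = 0.0525), which left 1 of 7, and Fcgr4 was 0.41 (exact permutation p = 0.053).

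Over all genes at 7 weeks, centring raised the calls to 10892 against 7167 and lowered the share of calls that were higher to 23.6% against 48.4%; for the difference between ages that share was 33.2% against 57.5%, and for KO between ages 35.1% against 50.1%. The 9 genes called at 4 weeks became 5 with array weights, 1 with the groups alone, 17 with the level filter, 0 by rank-sum test and 3 to 24 with single mice left out. The level filter left out Fcgr1 and Fcgr4. No other feature names any of the 7, so none could be tested separately.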
